A study of Rattus norvegicus with 12 samples.

Results

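The RNA signal was compared here for 6 genes that bear on glucose output by the liver. These genes are the gluconeogenic enzymes Pck1, Fbp1 and G6pc1, the glucose-6-phosphate transporter Slc37a4, the coactivator Ppargc1a and the pyruvate dehydrogenase kinase Pdk4. They were taken by name, as the probe sets whose annotation holds exactly 1 gene symbol. Each of the 6 had 1 such probe set, among 15310 probe sets for 14506 genes in all. The livers came from 12 Sprague-Dawley rats, male, of a diet-induced obese strain and 20 weeks old, with 1 Affymetrix Rat Gene 1.0 ST array per sample. Every rat had eaten a high fat, high sucrose diet freely for 8 weeks from the age of 12 weeks, with 10% of energy from protein and 4.6 kcal per gram. That protein was casein in the control diet (4 samples), skim milk powder in the dairy diet (4 samples), or 7.1% casein with 2.9% leucine in the leucine diet (4 samples). The leucine diet thus also held less casein, and dairy protein came with the rest of skim milk powder. Samples carry replicate numbers 1 to 4 within a diet and are taken as 1 rat each, which the labels do not state, so p-values measure the spread between these samples. The sources used here do not give the feeding state or the hour at death.

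Gluconeogenesis makes glucose from lactate, amino acids and glycerol. Pck1 turns oxaloacetate into phosphoenolpyruvate, Fbp1 removes a phosphate from fructose-1,6-bisphosphate, and G6pc1, fed by Slc37a4 in the membrane of the endoplasmic reticulum, releases free glucose. Glucagon and cAMP, through CREB and the coactivator Ppargc1a, raise transcription of Pck1 and G6pc1 in fasting, and insulin represses it by keeping FOXO1 out of the nucleus. Pdk4 switches off pyruvate dehydrogenase, so that pyruvate is spared from oxidation and can enter gluconeogenesis.

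The promoters of Pck1, G6pc1 and Ppargc1a are shown because Ppargc1a, whose protein acts on the genes of Pck1 and G6pc1, is compared with both across livers. Each is a RefSeq sequence of GRCr8 with 250 bases before and 50 bases from the start of the gene, 5′ to 3′ on the strand of the gene. All 6 members matched the promoter table by symbol, with 7 entries, since Slc37a4 has 2 starts. Capitals mark the motifs searched on either strand. One of them is the core of the cAMP response element, TGACG, whose full palindrome, TGACGTCA, was also searched and overlaps it. Forkhead factors such as FOXO1 are represented by the motif GTAAACA, and the core of the insulin response sequence by CAAAACA. One side of the glucocorticoid receptor site is written AGAACA, and the TATA box was searched as TATAAA.
Pck1 (chr3:182348322-182348621, + strand): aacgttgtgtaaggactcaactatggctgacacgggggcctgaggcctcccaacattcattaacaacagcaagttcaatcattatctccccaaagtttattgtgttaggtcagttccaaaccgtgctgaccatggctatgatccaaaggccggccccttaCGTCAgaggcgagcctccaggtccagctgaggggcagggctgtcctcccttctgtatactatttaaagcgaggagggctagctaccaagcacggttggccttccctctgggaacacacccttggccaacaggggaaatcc
G6pc1 (chr10:86807409-86807708, + strand): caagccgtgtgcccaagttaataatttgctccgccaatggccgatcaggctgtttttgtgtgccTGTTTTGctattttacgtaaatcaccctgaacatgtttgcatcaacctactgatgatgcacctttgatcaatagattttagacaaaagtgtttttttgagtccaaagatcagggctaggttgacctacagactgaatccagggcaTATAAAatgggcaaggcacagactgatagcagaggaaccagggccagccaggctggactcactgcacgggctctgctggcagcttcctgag
Ppargc1a (chr14:63634058-63634357, + strand): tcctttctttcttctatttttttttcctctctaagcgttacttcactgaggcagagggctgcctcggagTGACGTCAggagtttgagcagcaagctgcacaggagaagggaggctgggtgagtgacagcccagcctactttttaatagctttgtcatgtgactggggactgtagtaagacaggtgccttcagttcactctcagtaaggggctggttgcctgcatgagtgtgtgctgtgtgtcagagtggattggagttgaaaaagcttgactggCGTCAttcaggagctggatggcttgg

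The Pck1 promoter held 1 TGACG core, written as CGTCA, which began 90 bases before the start. The Ppargc1a promoter held the full TGACGTCA from 181 bases before the start, which contains the core on both strands, and another core 24 bases after the start. The G6pc1 promoter held the insulin response core, written as TGTTTTG, from 186 bases before the start and a TATA box string from 41 bases before it. Both windows of Slc37a4 held the core TGACG, and those of Fbp1 and Pdk4 held none of the 6 motifs. Over all 33469 promoters of the table, the core of the cAMP response element was present in 21.2%, its palindrome in 1.83%, the insulin response core in 6.28% and the TATA box string in 14.2%. The strings GTAAACA (3.78%) and AGAACA (20.7%) were in no member's window. This does not show that forkhead factors or the glucocorticoid receptor have no site there. A match is a string of letters and no measured site.

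By SD, livers of 1 diet differed from each other more than the diet means did for every member except Ppargc1a. A mean of 4 livers varies less than single livers do, so this is a description. By range the casein livers of Ppargc1a spanned 1.61 log2 units, and its diet means lay between 3.78 and 4.88. G6pc1 spanned 7.72 log2 units between 2 leucine-fed rats, and its diet means lay between 8.05 and 9.89. Limma called 0 of the 6 members in any of the 3 comparisons at an adjusted p under 0.05. Over all probe sets it called 0.0849% between dairy and casein, 0% between leucine and casein and 0% between leucine and dairy. At an unadjusted p under 0.05, Ppargc1a alone stood out of the 6, lower with dairy than with casein and higher with leucine than with dairy. The unadjusted background was 6.32% lower and 4.59% higher for dairy against casein, and 3.65% higher and 3.3% lower for leucine against dairy. Between leucine and casein 0 of 6 members had an unadjusted p under 0.05, where 1.39% of all probe sets were higher and 1.92% lower. A moderated F test over the 3 diets called 0 of 6 members, against 0.0327% of all probe sets. Without adjustment Ppargc1a alone of the members was under 0.05 in this F test, as were 7.76% of all probe sets, and its limma adjusted p was 0.581. The arrays of dairy replicate 3 and casein replicate 4 had the narrowest spread of values (SD over probe sets 2.07 and 2.14, against up to 2.33).

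**Figure D1:**
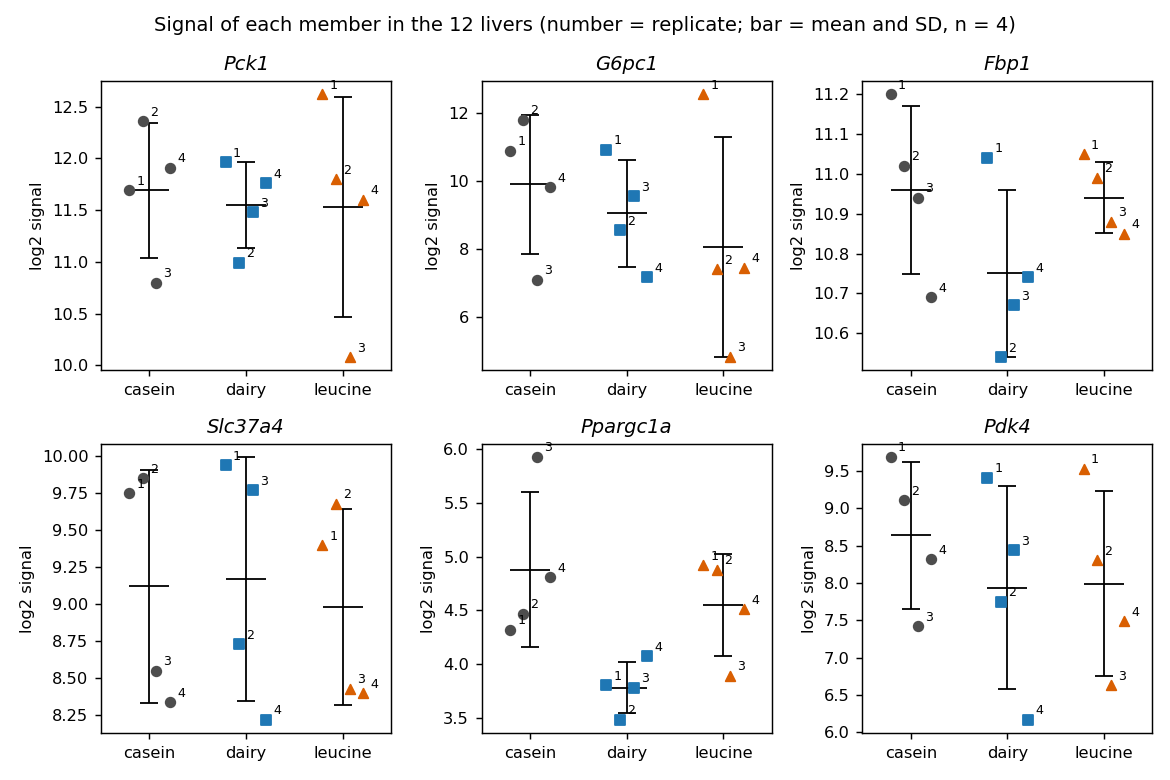
Log2 signal (vertical axis, own scale in each panel, none starting at 0) of the 6 members in the 12 livers, by diet (horizontal axis). Points are livers with their replicate number, and bars are the mean ± SD of 4 livers; the G6pc1 livers of the leucine diet run from 4.83 to 12.54, and the 4 Ppargc1a values of dairy lie below the 4 of casein.

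Pck1 catalyses the step that commits carbon to gluconeogenesis. Its log2 signals in the casein livers were 11.69, 12.36, 10.80 and 11.91 for replicates 1 to 4. The dairy livers stood at 11.96, 10.99, 11.48 and 11.76, and the leucine livers at 12.62, 11.80, 10.08 and 11.60. Leucine replicates 1 and 3 were thus the highest and the lowest of all 12, and the 3 diets overlapped. Means were 11.69 ± 0.656 with casein, 11.55 ± 0.419 with dairy and 11.53 ± 1.06 with leucine (SD, n = 4 each), and no neighbours in that order differed beyond their spread. Dairy minus casein was -0.14 ± 0.468 (SE, limma adjusted p = 0.932), with a 95% interval of 0.449-fold to 1.84-fold. Leucine minus casein was -0.163 ± 0.468 (adjusted p = 0.999) and leucine minus dairy -0.0231 ± 0.468 (adjusted p = 0.995). These intervals are wide and do not show equal levels.

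Fbp1, the fructose-1,6-bisphosphatase of liver, was the steadiest member. Its log2 signals were 11.20, 11.02, 10.94 and 10.69 with casein, 11.04, 10.54, 10.67 and 10.74 with dairy, and 11.05, 10.99, 10.88 and 10.85 with leucine. All 12 livers lay within 0.658 log2 units, a 1.58-fold range, and the diets overlapped. The order of means was casein (10.96 ± 0.211), leucine (10.94 ± 0.0893) and dairy (10.75 ± 0.209; SD, n = 4 each). Dairy minus casein was -0.215 ± 0.149 (SE, limma adjusted p = 0.605), with a 95% interval of 0.688-fold to 1.08-fold. Leucine minus casein was -0.0194 ± 0.149 (adjusted p = 0.999; 0.788-fold to 1.23-fold). Leucine minus dairy was 0.196 ± 0.149 (adjusted p = 0.783; 0.915-fold to 1.43-fold).

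G6pc1, the catalytic subunit of glucose-6-phosphatase, varied most. The casein livers stood at 10.88, 11.79, 7.09 and 9.80, the dairy livers at 10.91, 8.54, 9.54 and 7.16, and the leucine livers at 12.54, 7.40, 4.83 and 7.45. The diets overlapped, and the highest and the lowest of all livers came from the same diet, leucine, with replicate 3 lowest by 2.27. Within the leucine diet the extremes differed 210.3-fold, within casein 25.9-fold and within dairy 13.4-fold. Means were 9.89 ± 2.03 with casein, 9.04 ± 1.58 with dairy and 8.05 ± 3.23 with leucine (SD, n = 4 each). Dairy minus casein was -0.852 ± 1.44 (SE, limma adjusted p = 0.857) and leucine minus casein -1.84 ± 1.44 (adjusted p = 0.999). Leucine minus dairy was -0.984 ± 1.44 (adjusted p = 0.901). The 95% interval of leucine minus casein ran from -4.96 to 1.29 and does not show equal levels. Leaving out 1 liver moved dairy minus casein to between -1.78 (without casein 3) and -0.219 (without casein 2), and leucine minus casein to between -3.33 (without leucine 1) and -0.76 (without leucine 3).

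Slc37a4, the transporter that carries glucose-6-phosphate to G6pc1, took values in 2 separate sets. Casein replicates 1 to 4 stood at 9.75, 9.85, 8.55 and 8.34, dairy at 9.94, 8.73, 9.77 and 8.22, and leucine at 9.40, 9.68, 8.43 and 8.40. In each diet 2 livers were low (8.73 or less) and 2 were high (9.40 or more). The low ones were casein 3 and 4, dairy 2 and 4, and leucine 3 and 4. The gap of 0.661 between the sets was wider than the range inside the lower set (0.514) or the higher set (0.543). With that 2 against 2 pattern in every diet the means hardly differed, at 9.12 ± 0.788 with casein, 9.17 ± 0.825 with dairy and 8.98 ± 0.662 with leucine (SD, n = 4 each). Dairy minus casein was 0.0451 ± 0.469 (SE, limma adjusted p = 0.981; 95% interval 0.509-fold to 2.09-fold). Leucine minus casein was -0.146 ± 0.469 and leucine minus dairy -0.191 ± 0.469 (adjusted p = 0.999 and 0.939). Without the arrays of narrowest spread dairy minus casein was -0.418 and leucine minus dairy 0.0105, so neither sign is stable.

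Ppargc1a, the coactivator, had a lower signal in every dairy liver than in any casein liver. Its log2 signals were 4.32, 4.47, 5.93 and 4.81 with casein, 3.80, 3.48, 3.78 and 4.07 with dairy, and 4.92, 4.88, 3.89 and 4.51 with leucine. Dairy livers stayed at or under 4.07 and casein livers at or above 4.32, while leucine replicate 3 (3.89) lay among the dairy values. Of the 6 members only Ppargc1a had groups that did not overlap between dairy and casein, where 4.27% of all probe sets did so. Between leucine and casein, and between leucine and dairy, 0 of 6 did (2.44% and 5.09% of all probe sets). Means were 4.88 ± 0.726 with casein, 4.55 ± 0.477 with leucine and 3.78 ± 0.239 with dairy (SD, n = 4 each). Dairy minus casein was -1.10 ± 0.329 (SE; unadjusted p = 0.00552, limma adjusted p = 0.295), and leucine minus dairy 0.764 ± 0.329 (unadjusted p = 0.0379, adjusted p = 0.708). Leucine minus casein was -0.338 ± 0.329 (adjusted p = 0.999). Casein replicate 3 was the highest liver by 1.01, and without it dairy minus casein was -0.754 (adjusted p = 0.388) and leucine minus casein turned to 0.0102. Without the arrays of narrowest spread dairy minus casein was -1.13 (adjusted p = 0.214). The mean of Ppargc1a over all arrays, 4.40, was under the 5.33 of the median probe set. The deposited values hold no detection call, so how far it stood above background is unknown, and a difference near background can be understated.

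Pdk4, the kinase that inactivates pyruvate dehydrogenase and is a PPAR-alpha and FOXO1 target, spanned 3.52 log2 units over all livers, an 11.5-fold range. Its log2 signals were 9.69, 9.11, 7.42 and 8.32 with casein, 9.41, 7.75, 8.44 and 6.17 with dairy, and 9.53, 8.31, 6.63 and 7.49 with leucine. Replicate 1 was the highest liver of each diet, and the lowest were casein 3, dairy 4 and leucine 3. Means were 8.64 ± 0.986 with casein, 7.99 ± 1.24 with leucine and 7.94 ± 1.36 with dairy (SD, n = 4 each), and the diets overlapped. Dairy minus casein was -0.694 ± 0.732 (SE, limma adjusted p = 0.759; 95% interval 0.206-fold to 1.86-fold). Leucine minus casein was -0.645 ± 0.732 (adjusted p = 0.999) and leucine minus dairy 0.049 ± 0.732 (adjusted p = 0.993). Leaving out 1 liver moved dairy minus casein to between -1.18 (without dairy 1) and -0.104 (without dairy 4), and leucine minus casein to between -1.16 (without leucine 1) and -0.192 (without leucine 3).

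**Figure D2:**
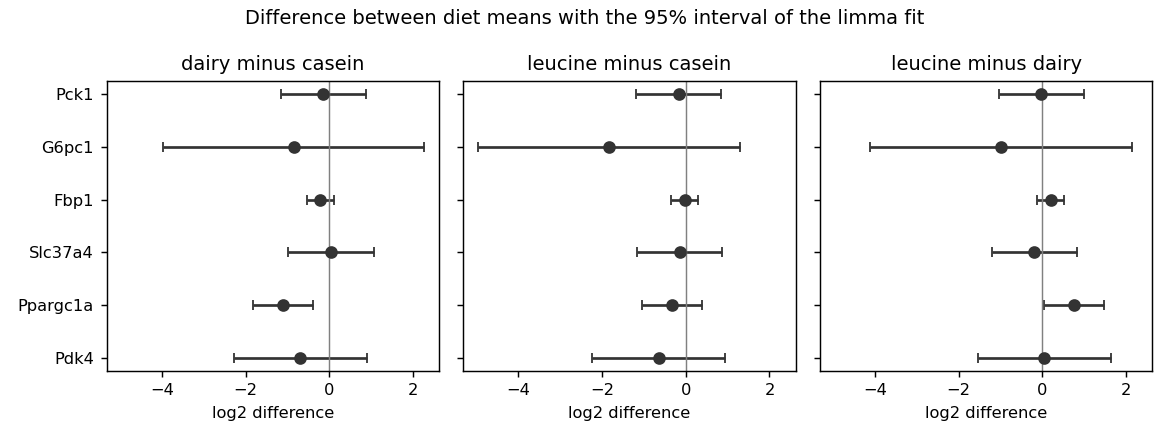
Log2 difference between diet means (horizontal axis) for each member (vertical axis), with bars for the 95% interval of the limma fit, not adjusted for multiple tests. Every interval includes 0 except those of Ppargc1a for dairy minus casein (-1.82 to -0.388) and leucine minus dairy (0.0502 to 1.48), and the G6pc1 intervals are the widest.

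As a list, 5 of 6 members had lower and 1 higher means with dairy than with casein, with a median difference of -0.455 against -0.0224 over all probe sets. With leucine all 6 had lower means than with casein (median -0.25, against -0.0288 over all probe sets). These comparisons share the casein livers. Between leucine and dairy 3 were higher and 3 lower (median 0.013, against -0.0113). Neutrophil markers and acute phase genes had higher means in the same comparisons with casein. Of 12 neutrophil markers 11 were higher with dairy (median 0.542) and 11 with leucine (median 0.438), and of 16 acute phase genes 15 were higher with dairy (median 0.289) and 12 with leucine (median 0.153). Limma called 0 of either list after adjustment. At an unadjusted p under 0.05, 1 neutrophil marker was higher with dairy and 0 with leucine, and 1 acute phase gene was higher in each comparison. Over all probe sets 4.59% were higher with dairy and 1.39% with leucine at that threshold. Of 14 hepatocyte markers 11 were lower with dairy (median -0.108) and 11 with leucine (median -0.0726). Of 9 skeletal muscle markers 9 were higher with dairy (median 0.157) and 6 with leucine (median 0.0524). Of 6 erythroid markers 5 were higher with dairy (median 0.135) and 6 with leucine (median 0.551). The part of any of these lists in the differences of the members was not tested.

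The spread between livers of 1 diet set the members apart from each other. The within-diet SD, pooled over the 3 diets, was 2.39 log2 units for G6pc1, and only 6 of the 15310 probe sets had a larger one. It was 1.20 for Pdk4, above that of 98.69% of probe sets, 0.762 for Slc37a4 (95.3%) and 0.76 for Pck1 (95.24%). Ppargc1a, at 0.52, exceeded 86.11% of probe sets. Fbp1, at 0.179, exceeded 13.12%, and the median probe set had 0.295. All members but Ppargc1a were brighter than the median probe set, and the median SD of such probe sets was 0.365. The SD of the 3 diet means was smaller than the within-diet SD for Pck1 (0.0882), G6pc1 (0.919), Fbp1 (0.119), Slc37a4 (0.0999) and Pdk4 (0.387), and larger only for Ppargc1a (0.565).

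**Figure D3:**
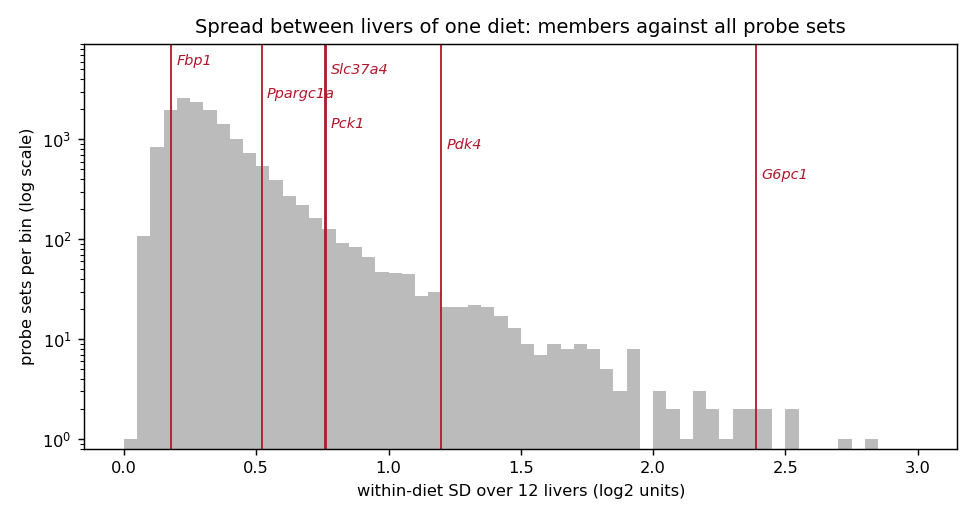
Number of probe sets (vertical axis, log scale) by within-diet SD in log2 units (horizontal axis, bins of equal width), with red lines at the 6 members. G6pc1 (2.39) lies in the far tail, Pdk4 (1.20) above most probe sets, and the lines of Pck1 and Slc37a4 nearly coincide (0.76 and 0.762). Fbp1 (0.179) lies below the median of 0.295, which is 0.365 among probe sets brighter than the median.

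Across livers, G6pc1 went with Pdk4 and with Pck1, the 2 called pairs of 10. Relations were computed over the 12 livers for the 10 pairs without Slc37a4, with permutation p-values adjusted over the 10 pairs. G6pc1 and Pdk4 had the closest relation, with Pearson r = 0.886 (adjusted permutation p = 0.0012) and Spearman rho = 0.902 (adjusted permutation p = 0.0011). Without leucine replicates 1 and 3, the livers farthest from the median of G6pc1, r was 0.847 (adjusted permutation p = 0.0152), and on values centred on the diet means it was 0.895 (adjusted permutation p = 0.0037). In each diet the same liver was lowest for both genes: casein 3, dairy 4 and leucine 3. This relation thus held after the diet means were taken out.

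Pck1 and G6pc1 had r = 0.819 (adjusted permutation p = 0.00395) and rho = 0.79 (adjusted permutation p = 0.0165). Without casein replicate 3 and leucine replicate 3 r was 0.656 (adjusted permutation p = 0.123), and on diet-centred values 0.84 (adjusted permutation p = 0.0605), so the call was lost in both. Pck1 and Pdk4 had r = 0.648 (adjusted permutation p = 0.0683; rho = 0.622, adjusted permutation p = 0.107). In dairy replicate 4 Pck1 stood at 11.76, the second highest of its diet, where G6pc1 and Pdk4 were lowest. The Fbp1 relations were r = 0.324 with Pck1, 0.363 with G6pc1 and 0.566 with Pdk4 (rho = 0.497, 0.455 and 0.601; adjusted permutation p = 0.434, 0.407 and 0.141 for r and 0.202, 0.233 and 0.107 for rho).

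Ppargc1a had no called relation with the enzymes or Pdk4. Its r was 0.00336 with G6pc1, 0.0585 with Pdk4, 0.139 with Pck1 and 0.368 with Fbp1 (adjusted permutation p from 0.407 to 0.992), and rho was 0.00699, 0.028, 0.301 and 0.413 (adjusted permutation p from 0.263 to 0.991). Casein replicate 3 had the highest Ppargc1a of all livers and the lowest G6pc1, Pck1 and Pdk4 of its diet. In the leucine diet replicate 1 was the highest and replicate 3 the lowest for Ppargc1a, G6pc1, Pck1 and Pdk4 alike. With 12 livers these values do not show that a relation is absent.

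For Slc37a4 no r with the other members over all livers is given, since its values fall into 2 sets. An r within 1 set leaves out the step between the sets. It therefore cannot show that a relation over all livers is absent. Within either set of 6 livers, r with the other 5 members lay between -0.727 and 0.419 (10 relations, rho from -0.714 to 0.257; exact permutation p from 0.0903 to 0.885 for r and 0.136 to 1 for rho, adjusted 0.885 for r). The livers with low Slc37a4 included the lowest G6pc1 and Pdk4 liver of each diet. Leucine replicate 2 had high Slc37a4 (9.68) beside a G6pc1 signal of 7.40, and casein replicate 4 had low Slc37a4 (8.34) beside 9.80.

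**Figure D4:**
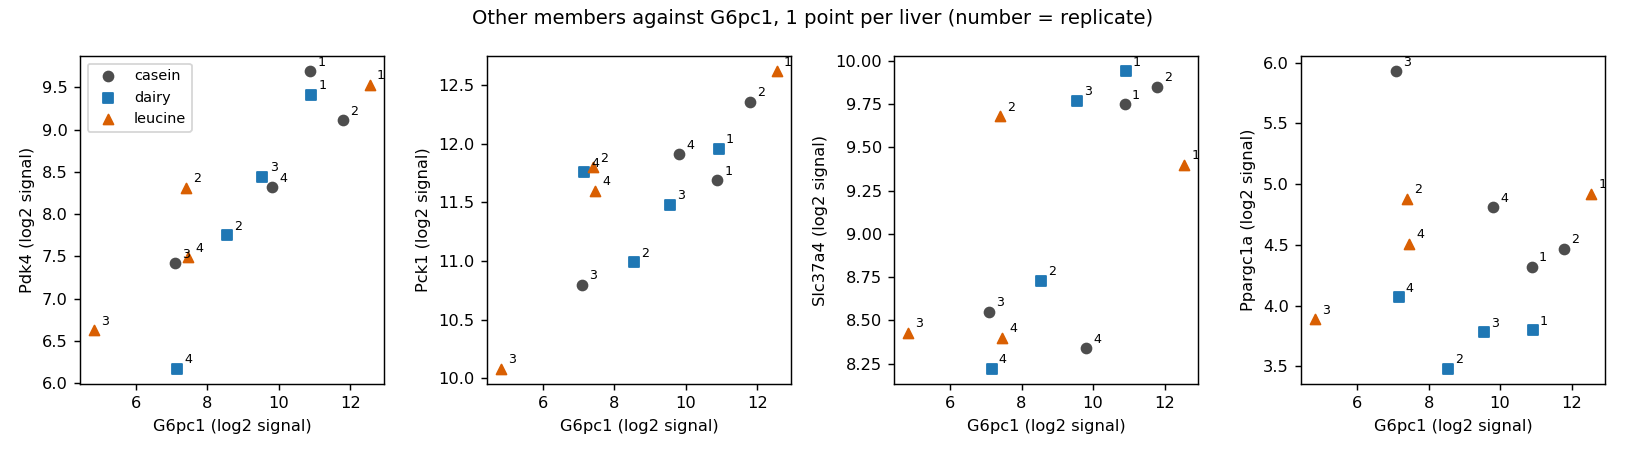
Log2 signal of Pdk4, Pck1, Slc37a4 and Ppargc1a (vertical axes) against G6pc1 (horizontal axis), 1 point per liver, with colour and shape for the diet and the replicate number beside it. Pdk4 (r = 0.886) and Pck1 (r = 0.819) climb with G6pc1, and Slc37a4 forms 2 bands (up to 8.73 and from 9.40). Ppargc1a shows no trend over the 12 livers together (r = 0.00336), with r = -0.959 in casein, -0.316 in dairy and 0.776 in leucine livers.

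Neutrophil markers and acute phase proteins ran opposite to G6pc1 and Pdk4 across livers. The 12 neutrophil markers had a mean log2 signal of 3.82 to 5.89 in casein livers, 4.42 to 6.26 in dairy livers and 3.85 to 6.33 in leucine livers. They were highest in casein 3, dairy 4 and leucine 3, the livers lowest for G6pc1 and Pdk4. Over 12 livers r was -0.948 with Pdk4, -0.89 with G6pc1 and -0.78 with Pck1 (permutation p adjusted over 50 relations 0.001, 0.00375 and 0.0125). Spearman's rho was -0.93, -0.916 and -0.748 (adjusted permutation p = 0.0015, 0.00175 and 0.0555). Without the 2 livers farthest from the median marker level r was -0.925, -0.846 and -0.865, and on diet-centred values -0.947, -0.921 and -0.791. Of the 12 markers 11 had a negative diet-centred r with Pdk4, where 7326 of all 15310 probe sets did. S100a9 ranged from 3.30 to 8.35 and Mmp8 from 2.61 to 6.50, while the granule enzymes Elane (3.41 to 3.94) and Mpo (3.47 to 4.44) varied little. The members and the gene lists were chosen with earlier results of these data known. The p-values of relations with the lists are therefore a description and no test of a prior choice. In bulk tissue more cells of a type and more RNA per cell cannot be told apart.

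The 16 acute phase genes measured, which hepatocytes secrete or induce in inflammation, had mean log2 signals of 9.98 to 11.97 with casein, 11.10 to 12.30 with dairy and 10.14 to 12.11 with leucine. Lcn2 is in both lists. Their r was -0.852 with G6pc1 and -0.799 with Pdk4 (adjusted permutation p = 0.00417 and 0.0125; rho = -0.811 and -0.86, adjusted permutation p = 0.0205 and 0.00967). Without the 2 farthest livers r was -0.767 and -0.879. With Pck1 it was -0.712 (adjusted permutation p = 0.0699; rho = -0.615, adjusted permutation p = 0.153). All 16 had a negative diet-centred r with Pck1, with G6pc1 and with Pdk4, where 6884, 6974 and 7326 of all 15310 probe sets did. The diet-centred r with Slc37a4, whose values fall into 2 sets, was also negative for all 16. It was negative for all 12 neutrophil markers too, and for 7738 of all 15310 probe sets. For Fbp1 r was -0.577 with the neutrophil markers and -0.507 with the acute phase genes (adjusted permutation p = 0.17 and 0.209; rho = -0.601 and -0.545, adjusted permutation p = 0.157 and 0.232). For Ppargc1a r was -0.105 with the neutrophil markers and -0.131 with the acute phase genes (adjusted permutation p = 0.918 and 0.86; rho = -0.133 and -0.21, adjusted permutation p = 0.792 and 0.695). The part of these genes in the spread of the members was not tested.

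**Figure D5:**
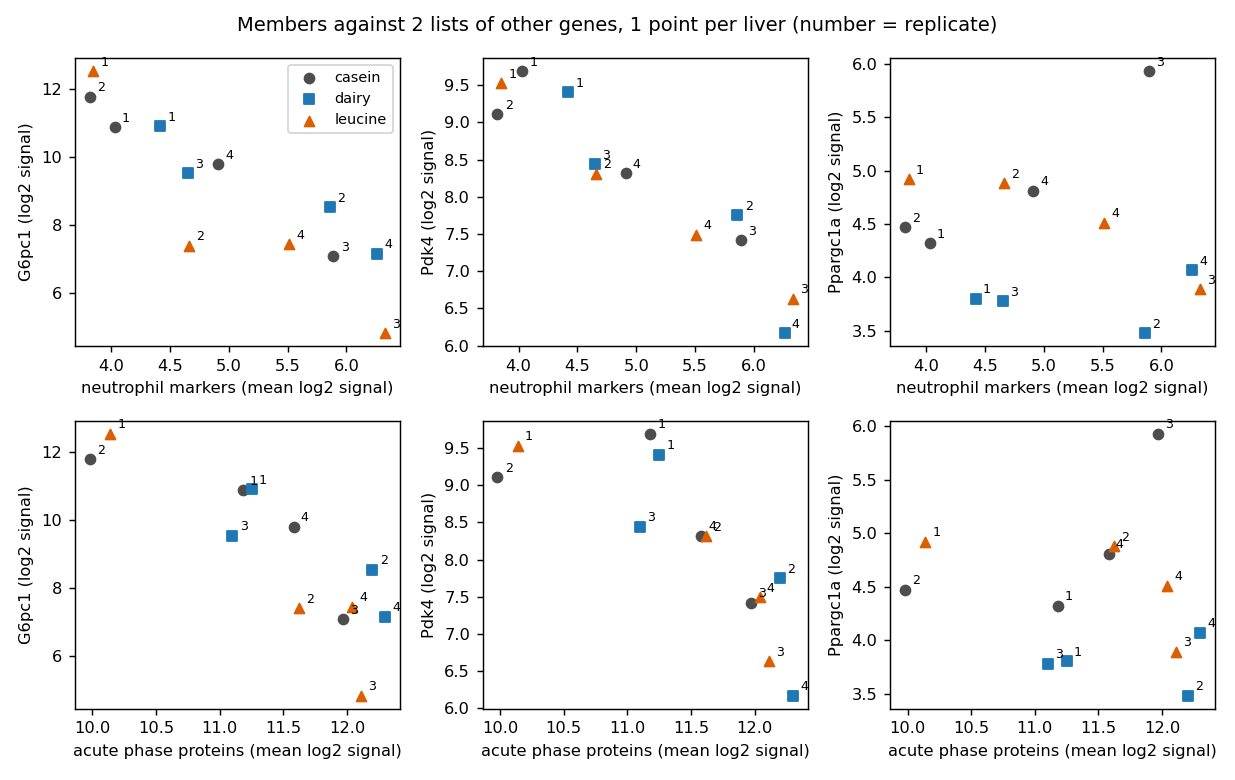
Log2 signal of G6pc1, Pdk4 and Ppargc1a (vertical axes) against the mean log2 signal of 12 neutrophil markers (upper row) or 16 acute phase genes (lower row) on the horizontal axes, 1 point per liver, coloured by diet with the replicate number. G6pc1 (r = -0.89 and -0.852) and Pdk4 (r = -0.948 and -0.799) drop from left to right in livers of all 3 diets, and Ppargc1a (r = -0.105 and -0.131) does not.

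Hepatocyte markers, among them albumin, were bright in every liver, with means of 12.34 to 12.86 over 14 genes. Their level ran with that of Fbp1, with r = 0.841 (permutation p adjusted over 50 relations 0.00862; rho = 0.832, adjusted permutation p = 0.0155; 0.78 without the 2 farthest livers). With Pdk4, G6pc1, Pck1 and Ppargc1a the hepatocyte markers had r = 0.686, 0.572, 0.564 and 0.259, none of them called (adjusted permutation p from 0.0925 to 0.643). Hepatocyte markers were lowest in dairy 3 and highest in casein 1, the arrays of narrowest and widest spread. The lists for adipocytes, skeletal muscle, Kupffer cells, cholangiocytes, erythroid cells and kidney tubule gave 0 called relations with the members out of 30 (adjusted permutation p from 0.153 to 0.98). Erythroid markers had a mean of 7.52 in leucine 3, against 6.34 in leucine 4, the next highest. All 6 erythroid markers had a negative diet-centred r with each member. Array SDs over probe sets ran from 2.07 to 2.33, and their relation with Fbp1 was r = 0.605 (adjusted permutation p = 0.153; rho = 0.643, adjusted permutation p = 0.14). With G6pc1 it was r = -0.0453 and with Pdk4 0.0474 (adjusted permutation p = 0.943 for each; rho = 0 and 0.182, adjusted permutation p = 1 and 0.716).

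The genes whose diet-centred values were most like those of a member over the 12 livers were sought among probe sets brighter than the median. For G6pc1 they were Fam3a (r = 0.972), Acot7 (0.966) and the phosphatidate phosphatase Lpin2 (0.954). For Pdk4 they were the fatty aldehyde dehydrogenase Aldh3a2 (0.962), the nucleoside transporter Slc29a3 (0.961) and Acy3 (0.959). For Pck1 they were the lysophospholipid transporter Mfsd2a (0.922), Klf3 (0.921) and Arg1 (0.906), the arginase of the urea cycle. Those most like Slc37a4, which share its split of the livers, were Slc10a5 (0.989), Ptgr3 (0.988) and Ankrd46 (0.987). Fbp1 was most like Aadac (0.949), St3gal6 (0.944) and the plasma protein gene Apoh (0.937). Ppargc1a had lower values, with Fbxw8 (0.844), Dll4 (0.837) and Hmox2 (0.827). These r are the highest among 7650 probe sets and are given as a description.

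The rest of the route was taken from lists of genes named by function. Of 28 other enzymes and carriers of gluconeogenesis measured, 19 had lower and 9 higher means with dairy than with casein (median -0.126). Limma called 0 after adjustment, and at an unadjusted p under 0.05 there were 4 lower and 1 higher (6.32% and 4.59% of all probe sets). The higher one was Pck2, the mitochondrial form of the Pck1 enzyme, at 1.15 ± 0.221 (SE, adjusted p = 0.0772), with all 4 dairy livers above all 4 casein livers. The aminotransferases Gpt and Got1, which feed alanine and aspartate carbon into the route, stood at -0.867 ± 0.228 and -1.25 ± 0.446, and the shared glycolytic enzyme Pgk1 at -0.626 ± 0.231 (adjusted p from 0.227 to 0.365). For Gpt, Got1 and Pgk1 all 4 dairy livers lay below all 4 casein livers. Between these diets 4.27% of all probe sets did not overlap. Pyruvate carboxylase, Pc, which starts the route, differed by 0.11 ± 0.246 with dairy and -0.0407 ± 0.246 with leucine against casein (adjusted p = 0.892 and 0.999).

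With leucine against casein 19 of these 28 were lower and 9 higher (median -0.106), and 0 were called. At an unadjusted p under 0.05 there were 2 higher and 1 lower (1.39% and 1.92% of all probe sets). The mitochondrial pyruvate carrier subunit Mpc1 stood at 0.593 ± 0.222, Gpt at 0.515 ± 0.228 and the ubiquitous phosphatase G6pc3 at -0.571 ± 0.219 (SE, limma adjusted p = 0.999 each). Between leucine and dairy 15 were higher and 13 lower (median 0.0188), with 0 called. At an unadjusted p under 0.05 there were 3 higher and 1 lower (3.65% and 3.3% of all probe sets). Gpt differed by 1.38 ± 0.228 with no overlap, Got1 by 1.35 ± 0.446, the serine dehydratase Sds by 2.52 ± 0.846 and Pck2 by -1.25 ± 0.221 with no overlap (adjusted p from 0.604 to 0.657). Between these diets 5.09% of all probe sets did not overlap.

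Of 33 regulators and hormone signalling genes, 23 were lower and 10 higher with dairy than with casein (median -0.122), with 0 called. At an unadjusted p under 0.05, 3 were higher and 2 lower (4.59% and 6.32% of all probe sets). The pseudokinase Trib3 stood at 1.16 ± 0.306, the transcription factor Cebpa at 0.841 ± 0.28 and the GLP-1 receptor Glp1r at 0.443 ± 0.17 (SE, limma adjusted p from 0.228 to 0.384). Dairy and casein values did not overlap for Trib3 and Cebpa, nor for 4.27% of all probe sets, and did for Glp1r. The insulin receptor Insr stood at -0.644 ± 0.195 (adjusted p = 0.301). Foxo1, the insulin-restrained activator of G6pc1 and Pck1, differed by -0.199 ± 0.321 with dairy and 0.103 ± 0.321 with leucine (adjusted p = 0.848 and 0.999). Against casein, leucine livers had 19 of 33 higher (median 0.0861), with 0 called. At an unadjusted p under 0.05, 2 were higher, as were 1.39% of all probe sets. These 2 were Cebpb (0.838 ± 0.324) and Nr4a1 (0.773 ± 0.342), both factors that can act on gluconeogenic promoters (adjusted p = 0.999 each). Igfbp1, a hepatic gene repressed by insulin, stood at 1.86 ± 0.957 with leucine and 0.504 ± 0.957 with dairy (adjusted p = 0.999 and 0.872). Between leucine and dairy 22 were higher and 11 lower (median 0.246), and 0 were called. Crem (0.56 ± 0.242) and Trib3 (-0.921 ± 0.306) had an unadjusted p under 0.05 (adjusted p = 0.708 and 0.657). Over all probe sets 3.65% were higher and 3.3% lower at that unadjusted threshold.

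The pyruvate dehydrogenase complex, the target of Pdk4, and its other kinases and phosphatases had 9 of 11 genes lower with dairy than with casein (median -0.57), with 0 called by limma. At an unadjusted p under 0.05, 3 were lower, as were 6.32% of all probe sets. These 3 were the subunits Pdhx (-0.606 ± 0.138, adjusted p = 0.148), whose 4 dairy values lay below the 4 of casein, Dld (-0.93 ± 0.367, adjusted p = 0.393) and Pdha1 (-0.57 ± 0.252, adjusted p = 0.444). Between these diets 4.27% of all probe sets did not overlap. Pdk2, the other main pyruvate dehydrogenase kinase of liver, differed by -0.448 ± 0.408 with dairy and -0.325 ± 0.408 with leucine (SE, adjusted p = 0.718 and 0.999). With leucine 9 of 11 were lower than with casein (median -0.213), and 0 had an unadjusted p under 0.05. Between leucine and dairy 9 of 11 were higher (median 0.18), with 0 called. Pdhx alone (0.315 ± 0.138, adjusted p = 0.708), with no overlap, had an unadjusted p under 0.05. Over all probe sets 3.65% were higher at that threshold, and 5.09% did not overlap between these diets.

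Of 20 genes of glycolysis and insulin-induced fat synthesis, which oppose the route, 14 were lower with dairy (median -0.353) and 17 with leucine (median -0.302) than with casein, and 13 were lower with leucine than with dairy (median -0.0659). Limma called 0, and the regulator of fructose-2,6-bisphosphate Pfkfb2 alone, at -0.474 ± 0.214 with dairy, had an unadjusted p under 0.05 (adjusted p = 0.45). Over all probe sets 6.32% were lower with dairy at that threshold. Pyruvate kinase, Pklr, differed by -0.173 ± 0.425 with dairy and -0.191 ± 0.425 with leucine (adjusted p = 0.902 and 0.999). Across livers 14 of these 20 genes had a positive and 6 a negative diet-centred r with G6pc1 (median 0.591). With Pdk4 the counts were the same (median 0.644). Of all 15310 probe sets 8336 had a positive one with G6pc1 and 7984 with Pdk4. The 6 negative genes were Pkm, Pfkl, Pfkfb3, Hk1, Hk2 and Hk3 for both members. Of the 28 other enzymes and carriers of gluconeogenesis 22 had a positive r with G6pc1 and 24 with Pdk4 (medians 0.524 and 0.467). Of 14 hepatocyte markers 12 were positive with each (medians 0.616 and 0.622). Of 23 PPAR-alpha and fasting-induced genes of fat oxidation, the group that Pdk4 belongs with, 17 were lower with dairy (median -0.21) and 15 with leucine (median -0.0656) than with casein, and 14 were higher with leucine than with dairy (median 0.272). Limma called 0 in each. Ehhadh (-1.06 ± 0.284), Acadm (-0.672 ± 0.285) and Cd36 (-0.969 ± 0.426) had an unadjusted p under 0.05 with dairy, and Ehhadh (0.674 ± 0.284) between leucine and dairy (adjusted p from 0.237 to 0.693). At that unadjusted threshold 6.32% of all probe sets were lower with dairy than with casein, and 3.65% higher with leucine than with dairy. Dairy and casein values did not overlap for Ehhadh and did for Acadm and Cd36. Cpt1a, which admits fatty acids to mitochondria, differed by -0.528 ± 0.407 with dairy and -0.18 ± 0.407 with leucine (adjusted p = 0.652 and 0.999). Irs2 was not analysed here.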

How the data were processed

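Liver RNA was read on 12 arrays. The deposited values are log2 signals, 1 per probe set and array, made by the authors in Expression Console (Affymetrix), which the submitters' processing notes name; the sources used here do not give its version, algorithm or genome build. Columns were used as deposited. Array medians ran from 4.43 to 4.62; precision is limited by how many arrays there are. Probe sets with 1 symbol in the platform annotation were kept (15310 of 29214; 323 had several, 13581 were not listed). Diets were compared with limma 3.58.1 in R 4.3.3 (3 group means, 12 arrays, eBayes defaults, 9 residual and 3.448 prior degrees of freedom), two-sided, with Benjamini-Hochberg adjustment over all 15310 and a threshold of 0.05; the fit was tested on simulated data. Relations across livers used two-sided permutation tests (100000 resamples, smallest possible p 1e-05; exact within sets of 6). For lists, each gene is represented by its brightest probe set. Genes named were the members, up to 4 per pathway list and comparison with the smallest unadjusted p under 0.05, a few key genes, and the 3 most alike per member. The members and lists were chosen with earlier results of these data known.

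Replicate numbers are not tied by the labels to anything shared. Deviations of same-numbered samples correlated at 0.208 to 0.532 between leucine and casein, all over 0.1, though 3 of the 4 numbers correlated better with another number. The lowest was -0.505 between dairy and casein and -0.304 between leucine and dairy. Alternatives covered normalization, filters, weights, the replicate block and left-out samples.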

Additional observations from a re-analysis of the deposited data

How the results depend on the processing

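Over 375 refits of the 18 member differences, none passed an adjusted p of 0.05; the lowest was 0.0653 (Ppargc1a, dairy minus casein, array quality weights), where the range over its alternatives reached 0.491. Of the 18 differences 8 kept their sign throughout, among them dairy minus casein for Ppargc1a (-1.29 to -0.754), G6pc1 (-2.22 to -0.219), Pdk4 (-1.46 to -0.104) and Fbp1 (-0.379 to -0.1). Sign turns, none of them of a called value, were as follows, and their cause was not tested. Quantile normalization gave 0.00761 for Fbp1 (leucine minus casein) and -0.00951 for Pdk4 (leucine minus dairy). Centring arrays on their medians gave 0.00856 for Fbp1 (leucine minus casein) and 0.0331 for Pck1 (leucine minus dairy). Array quality weights gave -0.735 for Slc37a4 (dairy minus casein), and 0.135 for Pck1 and 0.155 for Slc37a4 (leucine minus dairy). Leaving out both arrays of narrowest spread, an alternative chosen after seeing the data, gave -0.418 (dairy minus casein) and 0.0105 (leucine minus dairy) for Slc37a4. There leucine minus casein was -0.407 for Slc37a4, -0.11 for Fbp1 and -0.089 for Pck1, dairy minus casein -0.0443 for Pck1, and leucine minus dairy -0.0447 for Pck1 and 0.215 for Pdk4, all moved by over 1.5 times.

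With single livers left out, dairy minus casein ran from -0.437 to 0.0833 for Pck1 and -0.216 to 0.36 for Slc37a4. Leucine minus casein ran from -0.525 to 0.0102 for Ppargc1a, -0.11 to 0.0605 for Fbp1, -0.528 to 0.32 for Pck1 and -0.407 to 0.0969 for Slc37a4. Leucine minus dairy ran from -2.48 (without leucine replicate 1) to 0.0919 (without leucine replicate 3) for G6pc1, -0.388 to 0.46 for Pck1, -0.541 to 0.537 for Pdk4 and -0.506 to 0.0661 for Slc37a4. Among relations, G6pc1 with Ppargc1a was -0.00305 after quantile normalization, -0.0913 on diet-centred values and -0.35 without the 2 farthest livers (added after seeing the data); on diet-centred values Fbp1 with Ppargc1a was -0.00335 and Ppargc1a with Pdk4 -0.154.

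The count of all probe sets called between dairy and casein, 13, was 22 after quantile normalization, 42 over all probe sets in the file, 8 with trend and robust, 1182 with array quality weights, 6 with only the 8 arrays compared and 164 without both arrays of narrowest spread. Across single livers left out its lowest value was 3 (casein 1 or dairy 1) and its highest 237 (casein 4), and it also moved by over 1.5 times without casein 2, dairy 2, dairy 4, leucine 1 or leucine 3. Between leucine and casein it was 0 to 2 (2 without leucine replicate 2). With the replicate block it was 19 for dairy against casein, 0 for leucine against casein and 1 for leucine against dairy, and no member was called. Ppargc1a has no value with the dimmer probe sets left out, since it was among them.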

Other observations

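The genes whose diet-centred values ran most opposite to a member over the 12 livers were looked up after the values were seen, among probe sets brighter than the median, and r is a description. For G6pc1 they were the adhesion molecule Icam1 (r = -0.972; log2 signal from 6.56 to 11.15), the cytokine signalling inhibitor Socs3 (-0.965; 4.52 to 9.59) and the transcription factor Gata6 (-0.962; 5.62 to 7.61). For Pdk4 they were the calprotectin subunit S100a9 (-0.977), the small GTPase Gem (-0.962; 4.03 to 8.41) and Arid5a (-0.956; 4.39 to 8.84). For Pck1 they were Traf3 (-0.904), Sh3pxd2a (-0.888) and Sh3bp5l (-0.884). For Slc37a4, whose livers fall into 2 sets, they were the actin regulator Vasp (-0.968), the splicing protein gene Snrpb (-0.966) and spermidine synthase, Srm (-0.964). The lowest r of Ppargc1a was -0.783, with Setd4, and that of Fbp1 -0.932, with Wdr18.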
